A study of Homo sapiens with 14 samples.

Results

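Heterogeneous nuclear ribonucleoproteins (hnRNPs) are abundant RNA-binding proteins that coat nascent transcripts and act in splicing, export, stability and translation of mRNA. RBFOX2 is a splicing regulator that recognises the sequence UGCAUG, mostly in introns beside alternative exons, and in human cells RBFOX proteins occur in a large assembly of splicing regulators that holds hnRNP M, hnRNP H and hnRNP C. Many hnRNP genes carry alternative exons or 3′UTR introns whose splicing gives transcripts open to nonsense-mediated decay, so these mRNAs are themselves known targets of splicing regulators. The 10 hnRNP genes described here are HNRNPA1, HNRNPA2B1, HNRNPC, HNRNPD, HNRNPF, HNRNPH1, HNRNPK, HNRNPL, HNRNPM and HNRNPU. A C-to-U edit site was assigned to one of them where it lay inside the gene's Gencode span on the gene's strand. This gave 675 of the 394915 sites of the series, in 10 of the 16710 genes with any site, and 531 of 208672 edit clusters, where a cluster is a short stretch of transcript with edits above its local background.

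The sites came from 14 RNA-seq libraries of HEK293T, an immortalised line of human embryonic kidney origin that another label field calls HEK293XT, and the cells had been fixed in methanol. In the RBFOX2 libraries an anti-RBFOX2 antibody had been bound in the fixed cells and then a fusion of a nanobody with the cytidine deaminase APOBEC1, so that cytidines near the antibody were turned to uridines. The Enzyme-only libraries received the fusion without the antibody, and the Buffer-only libraries received neither, so their sites are the background of endogenous edits, variants and errors. For each of 2 RNA inputs, 1 ng and 100 pg, there were 3 RBFOX2 libraries, 1 Enzyme-only library and 3 Buffer-only libraries. The replicates were separate slides of 1 line, so the tests measure technical spread only. The files list edited positions and not expression, so markers of the line could not be checked, and coverage was known only at positions that carried an edit. Fewer transcripts and less editing per transcript cannot be told apart from numbers of sites. Libraries held between 40162 and 42589 sites in RBFOX2, 38007 in Enzyme-only and between 20330 and 22543 in Buffer-only libraries at 1 ng, and between 26554 and 27437 in RBFOX2, 24829 in Enzyme-only and between 18650 and 21140 in Buffer-only libraries at 100 pg.

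The sequences on which the results turn are given 5′ to 3′ on the transcript strand, as DNA letters read from the hg38 genome. The first set holds UGCAUG, in capitals as TGCATG, in the introns of HNRNPK and HNRNPD at the copies where the RBFOX2 libraries of 1 ng had 2 or more edits within 50 nt. In the order given they are chr9:83976510-83976539, chr4:82371107-82371136 and chr4:82370843-82370872, all on the minus strand.
HNRNPK intron 5: taatgttgaggtTGCATGatttaaatatgg
HNRNPD intron 2, copy with 2 sites: tttaaaatgtcaTGCATGttatactgaaat
HNRNPD intron 2, copy with 3 sites: tgtattcacaatTGCATGacttctctttgg

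The second set holds single edited cytidines, in capitals, that recurred between RBFOX2 libraries and are described further on. In the order given they are chr10:43386411-43386440, chr9:83968435-83968464, chr9:83976543-83976572, chr9:83976552-83976581 and chr14:21230328-21230357 on the minus strand and chr12:54284857-54284886 on the plus strand.
HNRNPF 3′UTR: ctattttcagcttttCtcaattaacatttt
HNRNPK 3′UTR: tttattagataatttCtcacctatagactt
HNRNPK intron 5, nearer the UGCAUG: ctttaacagcttgcaCatggagcacaaaga
HNRNPK intron 5, farther from the UGCAUG: ccatctgttctttaaCagcttgcacatgga
HNRNPC coding exon 5: tgacttggactatgaCtttcaacgggacta
HNRNPA1 3′UTR: cgctgaataaatgtCttttttttaatgtgc

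RBFOX2 libraries held more hnRNP sites than Buffer-only libraries at both inputs. At 1 ng the 10 genes together had 63, 94 and 88 sites in the RBFOX2 libraries, 64 in the Enzyme-only library and 30, 21 and 21 in the Buffer-only libraries. At 100 pg the numbers were 61, 55 and 69 in the RBFOX2 libraries, 42 in the Enzyme-only library and 24, 28 and 15 in the Buffer-only libraries. The Enzyme-only library of 1 ng was thus inside the range of the RBFOX2 libraries, while that of 100 pg was below it. On the opposite strand of the same spans the groups did not separate, with 21.3 ± 3.06 sites in RBFOX2 (SD, n = 3), 21 in Enzyme-only and 20.7 ± 1.53 in Buffer-only libraries (SD, n = 3) at 1 ng, and 16.7 ± 4.16 in RBFOX2, 13 in Enzyme-only and 16.7 ± 8.96 in Buffer-only libraries at 100 pg. Whole libraries also held more sites with RBFOX2. Per 10000 sites lying on the strand of any gene, the hnRNP genes took 26.0 ± 4.68 in RBFOX2, 23.5 in Enzyme-only and 20.5 ± 5.74 in Buffer-only libraries at 1 ng, and 36.3 ± 4.1 in RBFOX2, 28.1 in Enzyme-only and 21.2 ± 5.44 in Buffer-only libraries at 100 pg. The hnRNP share of a library therefore lay within the spread of the RBFOX2 and Buffer-only replicates at 1 ng, and at 100 pg each RBFOX2 library exceeded the highest Buffer-only library.

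**Figure D1:**
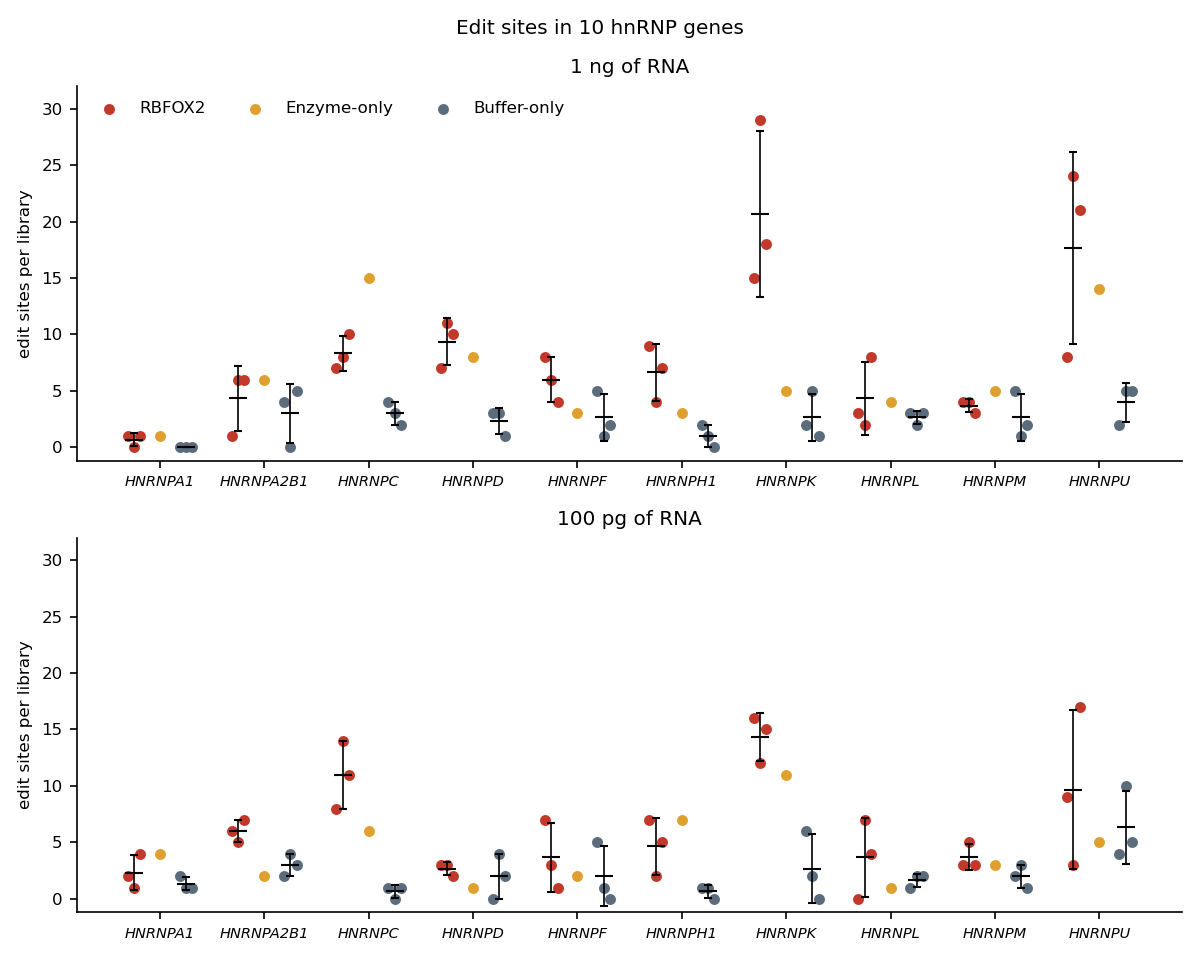
Edit sites per library in each of the 10 hnRNP genes (y axis, number of sites), at 1 ng and at 100 pg. Points are single libraries, and horizontal lines with error bars are the mean and SD of the groups of 3. HNRNPK had 15, 29 and 18 sites in the RBFOX2 libraries of 1 ng, all above the 2, 5 and 1 of the Buffer-only libraries.

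Gene by gene, without scaling, the lowest RBFOX2 library exceeded the highest Buffer-only library for 5 of 10 hnRNP genes at 1 ng, HNRNPC, HNRNPD, HNRNPH1, HNRNPK and HNRNPU, or 5 of the 9 with 5 or more sites, where 27.7% of all genes with 5 or more sites did so. At 100 pg this held for 4 of 10, HNRNPA2B1, HNRNPC, HNRNPH1 and HNRNPK, where 9.27% of such genes did so. The genes behind these percentages were not matched to the hnRNP genes for number of sites. HNRNPK, for example, had 62 sites over the RBFOX2 and 8 over the Buffer-only libraries of 1 ng. None of the 10 lay wholly below Buffer-only at either input, and the share of all genes that did so was not computed. For each hnRNP gene that separated, the exact two-sided permutation test gave p = 0.1. This is the smallest that 3 against 3 libraries allow, so no single gene could pass 0.05. Coverage of hnRNP sites also differed between the groups. It was higher in RBFOX2 than in Buffer-only libraries at both inputs, and highest in Enzyme-only libraries. The median coverage of an hnRNP site was 51 reads in RBFOX2, 60.5 in Enzyme-only and 34 in Buffer-only libraries of 1 ng, against 20 to 21 at sites of all genes in those groups. At 100 pg it was 154 reads in RBFOX2, 186 in Enzyme-only and 65 in Buffer-only libraries, against 20 to 27 at sites of all genes. The part of coverage in the counts was not tested.

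With TMM scaling, which takes out the general excess of sites in RBFOX2 libraries, edgeR's quasi-likelihood test called none of the hnRNP genes at an adjusted p under 0.05 at either input. At 1 ng 8 of 10 passed the filter on low counts, all but HNRNPA1 and HNRNPM, and 1 of them, HNRNPK, had an unadjusted p under 0.05. Over all genes tested, 1.94% were called higher and 11.7% had an unadjusted p under 0.05 in that direction. At 100 pg 4 of 10 passed the filter, HNRNPA2B1, HNRNPC, HNRNPK and HNRNPU, and 2 of them, HNRNPC and HNRNPK, had an unadjusted p under 0.05, where 0.13% of all genes tested were called higher and 10.2% had an unadjusted p under 0.05 in that direction. DESeq2 called 0 hnRNP genes at each input, and gave 1 and 2 with an unadjusted p under 0.05 at 1 ng and 100 pg. Over all genes it also called 0 at each input. Its unadjusted p was under 0.05 for 168 higher and 69 lower of 2265 genes at 1 ng. At 100 pg the numbers were 41 higher and 9 lower of 768. The median log2 fold change was 0.39 over the 8 genes at 1 ng, where 5 were positive and 3 negative, and 0.21 over all genes tested. It was 0.87 over the 4 genes at 100 pg and 0.07 over all genes tested. With no scaling, the median over all genes moved to 1.50 at 1 ng and 0.86 at 100 pg. Of 2265 genes tested at 1 ng, edgeR then called 932 higher and 6 lower, against 44 and 18 with scaling. Of 768 tested at 100 pg it called 94 higher and 0 lower, against 1 and 0 with scaling. Among these calls were 5 hnRNP genes at 1 ng and 2 at 100 pg. A gene that passes a filter on sites because it is edited in RBFOX2 is favoured in such counts, so these medians describe only the genes that passed.

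HNRNPK, which binds C-rich RNA through KH domains, had the most sites per kilobase of exon of the 10 genes in the RBFOX2 libraries of both inputs. It had 15, 29 and 18 sites in RBFOX2, 5 in Enzyme-only and 2, 5 and 1 in Buffer-only libraries of 1 ng. At 100 pg it had 16, 12 and 15 in RBFOX2, 11 in Enzyme-only and 6, 2 and 0 in Buffer-only libraries. The values of RBFOX2 and Buffer-only were apart at both inputs, and the Enzyme-only libraries lay below all RBFOX2 libraries, by 1 site at 100 pg. The scaled log2 fold change of RBFOX2 over Buffer-only was 1.60 (SE 0.505) at 1 ng with an edgeR adjusted p of 0.0791, and 1.57 (SE 0.596) at 100 pg with an adjusted p of 0.224. At 1 ng the log2 fold change of HNRNPK was 1.96 with an edgeR adjusted p of 0.0155 with no filter on low counts, and 0.76 with an adjusted p of 0.588 with clusters counted in place of sites. The DESeq2 adjusted p was 0.326, and without single replicates the edgeR log2 fold change was 1.19 to 2.38 with adjusted p of 0.0784 to 0.33.

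Within HNRNPK, intron 5 differed between the inputs and exon 17 held RBFOX2 sites at both. Intron 5 of the canonical transcript, 1489 nt long and singled out after its values were seen, held 5, 17 and 13 sites in RBFOX2, 1 in Enzyme-only and 1, 1 and 0 in Buffer-only libraries of 1 ng. The 100 pg values were 1, 2 and 1 in RBFOX2, 1 in Enzyme-only and 2, 0 and 0 in Buffer-only libraries. Intronic excess was thus seen at 1 ng, and at 100 pg the groups overlapped. The 35 RBFOX2 sites of 1 ng fell on 30 distinct positions at coverages of 26 to 83 reads, 14 of them rested on 1 edited read, and 15 lay in a noncoding exon of another annotated transcript. Sites of the control libraries in the intron had coverages of 35 to 67 reads, while the 4 RBFOX2 sites of 100 pg had 7 to 24. The intron's share of RNA in libraries of the 2 inputs was not measured.

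The single UGCAUG of intron 5, at chr9:83976522-83976527 and printed above, lies with its centre 470.5 nt downstream of exon 5 and 1019.5 nt upstream of exon 6. Within 50 nt of it there were 1, 4 and 2 sites in the RBFOX2 libraries of 1 ng and 0 in each of the other 11 libraries. Within 250 nt there were 23 sites over the RBFOX2 libraries, 0 in the Enzyme-only library and 1 over the Buffer-only libraries of 1 ng, against 3 over the RBFOX2, 0 in the Enzyme-only and 1 over the Buffer-only libraries of 100 pg. An A preceded the edited C at 23 of the 35 sites and a U at 10, the bases that APOBEC1 is known to prefer. The longest edit cluster in any of the 10 genes, 326 nt at chr9:83976258-83976583 in RBFOX2 replicate 2 of 1 ng, spans this UGCAUG.

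**Figure D2:**
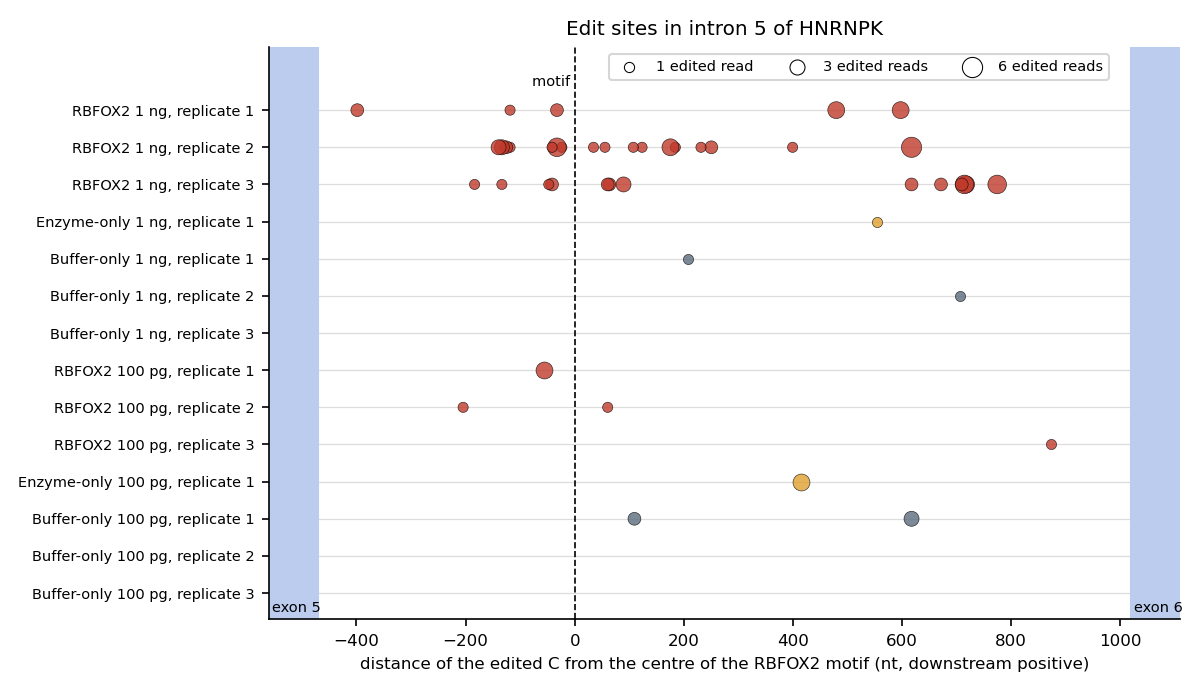
Edit sites in intron 5 of HNRNPK by library (rows) against their distance in nt from the centre of the single UGCAUG (x axis, downstream positive). Point size gives the number of edited reads and shaded ends are the flanking exons. The 5, 17 and 13 sites of the RBFOX2 libraries of 1 ng lie on both sides of the motif, and other libraries had 0 to 2 sites each.

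Exon 17 of HNRNPK, which is mostly 3′UTR, held RBFOX2 sites at both inputs. There were 8, 7 and 4 in RBFOX2, 2 in Enzyme-only and 0, 1 and 1 in Buffer-only libraries of 1 ng. At 100 pg there were 10, 6 and 9 in RBFOX2, 6 in Enzyme-only and 3, 0 and 0 in Buffer-only libraries. RBFOX2 exceeded Buffer-only in each library at both inputs, and the Enzyme-only library of 100 pg equalled the lowest RBFOX2 library.

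HNRNPC, which binds uridine tracts and packages nascent transcripts, had 7, 8 and 10 sites in RBFOX2, 15 in Enzyme-only and 4, 3 and 2 in Buffer-only libraries of 1 ng. In the 100 pg libraries it had 8, 14 and 11 in RBFOX2, 6 in Enzyme-only and 1, 0 and 1 in Buffer-only libraries. The Enzyme-only library thus exceeded all RBFOX2 libraries at 1 ng and lay under all of them at 100 pg. The scaled log2 fold change was 0.14 (SE 0.564) at 1 ng with an edgeR adjusted p of 0.935, and 3.06 (SE 0.835) at 100 pg with an adjusted p of 0.11. Without RBFOX2 replicate 1 of 100 pg, HNRNPC passed the threshold with a log2 fold change of 3.24 and an edgeR adjusted p of 0.0411, while without each of the other replicates the adjusted p was higher, up to 0.44, and DESeq2 gave 0.649. In 1 fit over both inputs the log2 ratio of the 1 ng fold to the 100 pg fold was −3.02 (SE 1.13) with an unadjusted p of 0.00771 and an edgeR adjusted p of 0.868, so the difference between inputs did not pass. Since RNA for both inputs may come from the same slides, the fit was repeated with the replicate number within each group as a block, which gave −3.03 with an adjusted p of 1. Most of its RBFOX2 sites were in the last exon, exon 9, with 4, 5 and 4 in RBFOX2, 10 in Enzyme-only and 1 in each Buffer-only library of 1 ng, and 4, 11 and 7 in RBFOX2, 5 in Enzyme-only and 0, 0 and 1 in Buffer-only libraries of 100 pg.

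HNRNPU, a scaffold-attachment protein that binds chromatin-associated RNA, had 8, 24 and 21 sites in RBFOX2, 14 in Enzyme-only and 2, 5 and 5 in Buffer-only libraries of 1 ng. At 100 pg it had 9, 3 and 17 in RBFOX2, 5 in Enzyme-only and 4, 10 and 5 in Buffer-only libraries. The groups separated at 1 ng and overlapped at 100 pg, and the scaled log2 fold changes were 0.80 (SE 0.483) at 1 ng, with an edgeR adjusted p of 0.417, and −0.21 at 100 pg, where the sign turned to 0.60 without scaling. Exon 14, which ends the canonical transcript, held 4, 14 and 5 of the RBFOX2 sites, 5 of the Enzyme-only sites and 0, 1 and 1 of the Buffer-only sites at 1 ng. Beyond the canonical transcript, where other HNRNPU transcripts run on, there were 3, 5 and 6 sites in RBFOX2, 0 in Enzyme-only and 1 in each Buffer-only library of 1 ng.

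HNRNPD, also called AUF1, binds AU-rich elements and promotes decay of mRNAs that carry them. It had 7, 11 and 10 sites in RBFOX2, 8 in Enzyme-only and 3, 3 and 1 in Buffer-only libraries of 1 ng. At 100 pg it had 3, 3 and 2 in RBFOX2, 1 in Enzyme-only and 0, 4 and 2 in Buffer-only libraries. HNRNPD was the 1 gene of the 10 whose RBFOX2 libraries of 1 ng lay above all those of 100 pg, as did 17.3% of all genes with 5 or more sites, and none of the 10 lay below, as did 0.685% of such genes. Input amount and library depth differed together, so their parts cannot be told apart. The scaled log2 fold change at 1 ng was 0.65 (SE 0.599) with an edgeR adjusted p of 0.619.

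In the RBFOX2 libraries of 1 ng, HNRNPD sites lay mostly in its introns. Intron 2 held 4, 4 and 6 sites in RBFOX2, 3 in Enzyme-only and 2, 2 and 1 in Buffer-only libraries of 1 ng, and 6 of those RBFOX2 sites were within 50 nt of 3 of the 4 UGCAUG copies in that intron, against 0 sites in the Enzyme-only, Buffer-only and 100 pg libraries. The copies printed above had 2 and 3 of these sites, and another copy, at chr4:82371309-82371314, had 1. Intron 8, which is 3′UTR in other HNRNPD transcripts, held 1, 5 and 3 sites in RBFOX2, 1 in Enzyme-only and 0 in each Buffer-only library of 1 ng.

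HNRNPH1 and HNRNPF are related proteins that bind G-rich tracts. HNRNPH1 had 9, 4 and 7 sites in RBFOX2, 3 in Enzyme-only and 2, 1 and 0 in Buffer-only libraries of 1 ng, and 7, 2 and 5 in RBFOX2, 7 in Enzyme-only and 1, 1 and 0 in Buffer-only libraries of 100 pg. RBFOX2 and Buffer-only libraries separated at both inputs, and the Enzyme-only library of 100 pg equalled the highest RBFOX2 library. The scaled log2 fold change of HNRNPH1 at 1 ng was 1.34 (SE 0.848) with an edgeR adjusted p of 0.443, and at 100 pg the gene did not pass the filter. HNRNPF had 8, 6 and 4 sites in RBFOX2, 3 in Enzyme-only and 5, 1 and 2 in Buffer-only libraries of 1 ng, and 7, 3 and 1 in RBFOX2, 2 in Enzyme-only and 5, 1 and 0 in Buffer-only libraries of 100 pg. Its groups overlapped at both inputs. In HNRNPF 17 of the 18 RBFOX2 sites of 1 ng were in exon 4, its last exon.

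The remaining genes had few sites in each library. HNRNPA2B1, a splicing regulator close in sequence to HNRNPA1, had 1, 6 and 6 sites in RBFOX2, 6 in Enzyme-only and 4, 0 and 5 in Buffer-only libraries of 1 ng, and 6, 5 and 7 in RBFOX2, 2 in Enzyme-only and 2, 4 and 3 in Buffer-only libraries of 100 pg. HNRNPL, which binds CA repeats, had 3, 2 and 8 in RBFOX2, 4 in Enzyme-only and 3, 2 and 3 in Buffer-only libraries of 1 ng, and 0, 7 and 4 in RBFOX2, 1 in Enzyme-only and 1, 2 and 2 in Buffer-only libraries of 100 pg. HNRNPM, the splicing regulator, had 3 to 4 in RBFOX2, 5 in Enzyme-only and 1 to 5 in Buffer-only libraries of 1 ng, and 3 to 5 in RBFOX2, 3 in Enzyme-only and 1 to 3 in Buffer-only libraries of 100 pg. Of these, RBFOX2 and Buffer-only libraries separated for HNRNPA2B1 at 100 pg and overlapped in the rest. HNRNPA1 had 0 to 1 sites in RBFOX2, 1 in Enzyme-only and 0 in Buffer-only libraries of 1 ng, and 1 to 4 in RBFOX2, 4 in Enzyme-only and 1 to 2 in Buffer-only libraries of 100 pg. Gencode lists 74 genes named as pseudogenes of HNRNPA1, 9 of HNRNPC, 5 of HNRNPK, 0 of HNRNPA2B1 and 1 to 3 of each other member. How reads matching such copies were placed is not given in the sources used here, so levels of HNRNPA1 above all are uncertain.

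Relative to exon length, counting intronic sites too, HNRNPK had 3.63 ± 1.29 sites per kilobase of exon (SD, n = 3) in the RBFOX2 libraries of 1 ng, above HNRNPF with 1.83 ± 0.61, and the libraries of the 2 genes did not overlap. HNRNPD with 1.33 ± 0.298, HNRNPC with 1.14 ± 0.208, HNRNPU with 0.786 ± 0.379, HNRNPH1 with 0.703 ± 0.265, HNRNPL with 0.667 ± 0.494 and HNRNPM with 0.654 ± 0.103 followed, each overlapping its neighbour. HNRNPA2B1 had 0.344 ± 0.229 and HNRNPA1 had 0.0993 ± 0.086, overlapping each other. At 100 pg HNRNPK led with 2.52 ± 0.364, above HNRNPC with 1.51 ± 0.41, and the other 8 genes had means of 0.348 to 1.12 that overlapped their neighbours. These values compare edited positions per length and depend on each gene's coverage.

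By region of the canonical transcript, introns held 44.7 ± 9.29% of hnRNP sites in RBFOX2 (SD, n = 3), 43.8% in Enzyme-only and 52.5 ± 12.5% in Buffer-only libraries of 1 ng. At 100 pg introns held 17.1 ± 6.13% in RBFOX2, 19% in Enzyme-only and 29.5 ± 3.4% in Buffer-only libraries. All 3 groups thus had a smaller intronic share at 100 pg. Without HNRNPK the RBFOX2 values were 40.8 ± 6.9% at 1 ng and 19.6 ± 7.89% at 100 pg. The 3′UTR held 35.4 ± 8.54% in RBFOX2, 34.4% in Enzyme-only and 19.4 ± 4.78% in Buffer-only libraries of 1 ng, and 50.8 ± 7.51% in RBFOX2, 45.2% in Enzyme-only and 21.8 ± 4.48% in Buffer-only libraries of 100 pg.

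When a site was called 3′UTR if any annotated transcript made it so, the only rule run over all genes, introns held 22.0% of hnRNP sites in RBFOX2 libraries of 1 ng and 9.73% in those of 100 pg, against 25.7% and 30.1% of sites of all genes. The intronic share at 100 pg was thus below that at 1 ng in the hnRNP genes and above it over all genes. The 3′UTR share under this rule was 51.8% at 1 ng and 74.6% at 100 pg in the hnRNP genes, against 51.0% and 42.9% over all genes.

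**Figure D3:**
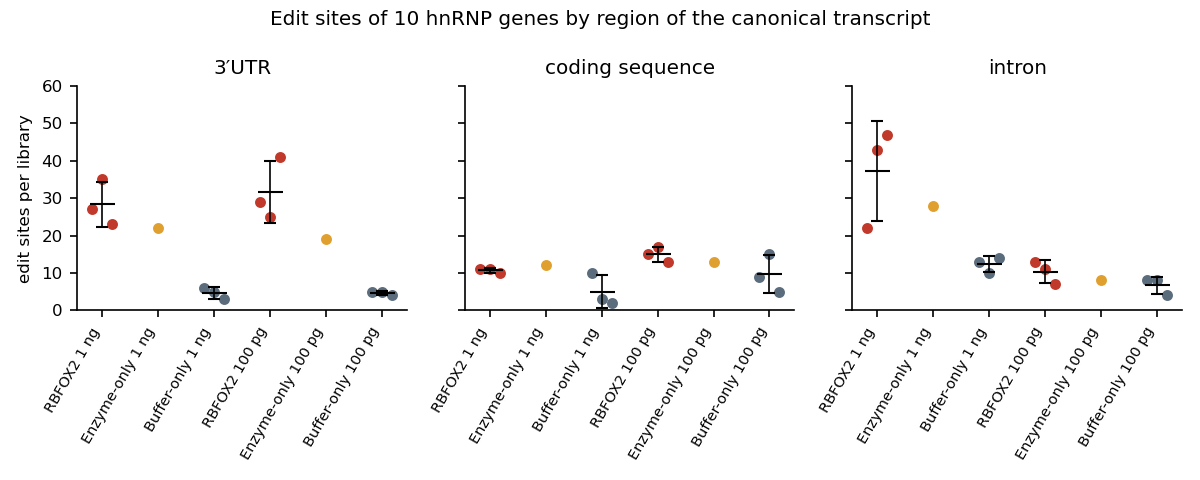
hnRNP edit sites per library by region of the canonical transcript (y axis, number of sites; x axis, group). Points are single libraries, with the mean and SD for groups of 3. Intronic sites averaged 37.3 ± 13.4 in RBFOX2 libraries of 1 ng and 10.3 ± 3.06 in those of 100 pg, while 3′UTR sites averaged 28.3 ± 6.11 and 31.7 ± 8.33.

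The spans of the 10 genes hold 64 copies of UGCAUG, searched on the transcript strand alone. HNRNPM has 16, HNRNPC 15 and HNRNPD 7, while HNRNPK, HNRNPA1 and HNRNPU have 2 each. In RBFOX2 libraries of 1 ng 16 of 245 hnRNP sites lay within 50 nt of a copy, 6.54 ± 1.33% per library (SD, n = 3), against 1 of 64 in Enzyme-only and 0 of 72 in Buffer-only libraries. The 0 of 72 sites allow a Buffer-only share of up to 4.17%, for counting error alone. Over all genes the shares were 6.08 ± 0.176% in RBFOX2, 2.86% in Enzyme-only and 2.48 ± 0.153% in Buffer-only libraries. Of the 16 sites, 7 were in HNRNPK and 6 in HNRNPD, and without HNRNPK 9 of 183 remained. At 100 pg 4 of 185 hnRNP sites in RBFOX2 libraries lay within 50 nt, 2.12 ± 2.53% per library, against 1 of 42 in Enzyme-only and 1 of 67 in Buffer-only libraries, where all genes had 4.54 ± 0.0416% in RBFOX2, 2.78% in Enzyme-only and 2.64 ± 0.0874% in Buffer-only libraries. The hnRNP share was thus close to that of all genes at 1 ng and spread widely between libraries at 100 pg.

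The base before the edited C was A in 49.4% of hnRNP sites in RBFOX2, 40.6% in Enzyme-only and 19.4% in Buffer-only libraries of 1 ng, and 49.2% in RBFOX2, 42.9% in Enzyme-only and 16.4% in Buffer-only libraries of 100 pg. Over all genes A stood there in 42.4% of sites in RBFOX2, 39.3% in Enzyme-only and 20% in Buffer-only libraries of 1 ng, and in 34.1% in RBFOX2, 30.4% in Enzyme-only and 20.2% in Buffer-only libraries of 100 pg. The RBFOX2 and Enzyme-only libraries thus shared the context known for APOBEC1. At hnRNP sites of Buffer-only libraries G was the most frequent base, with 24 of 72 (33.3%) at 1 ng and 28 of 67 (41.8%) at 100 pg. Over all genes U led in Buffer-only libraries, with 27.9% at 1 ng and 27.3% at 100 pg, and G had 26.4% and 26.5%. The median share of reads edited at an hnRNP site was 3.23% in RBFOX2, 2.51% in Enzyme-only and 3.85% in Buffer-only libraries of 1 ng, and 2.78% in RBFOX2, 3.01% in Enzyme-only and 2.78% in Buffer-only libraries of 100 pg. Sites of 1 edited read made up 38.8% of hnRNP sites in RBFOX2, 42.2% in Enzyme-only and 61.1% in Buffer-only libraries of 1 ng, and 15.7% in RBFOX2, 9.52% in Enzyme-only and 31.3% in Buffer-only libraries of 100 pg.

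Most edits were found once. Of 618 distinct positions in the 10 genes, 571 (92.4%) were edited in 1 library, 40 in 2, 4 in 3 and 3 in 4 libraries. One position was edited in all 3 RBFOX2 libraries of an input and in no Buffer-only library of it, at base 43386425 of chromosome 10 in the 3′UTR of HNRNPF. It was edited in 6 of 207, 6 of 242 and 4 of 251 reads in RBFOX2 replicates 1, 2 and 3 of 1 ng, or 2.9% (95% Wilson interval 1.34 to 6.18), 2.48% (1.14 to 5.3) and 1.59% (0.621 to 4.03). It was edited again in 11 of 336 reads, 3.27% (1.84 to 5.77), in RBFOX2 replicate 3 of 100 pg, and in no Enzyme-only or Buffer-only library. These intervals cover counting error alone, because amplified reads are not independent molecules, and coverage in the libraries without an edit there was not recorded. At 1 ng 1 of 233 RBFOX2 positions met the rule of all 3 RBFOX2 and no Buffer-only libraries. At 100 pg 0 of 178 did, and the share over all genes under this rule was not computed.

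Editing in 2 or more RBFOX2 libraries and no Buffer-only library of the input was seen at 11 of 233 RBFOX2 positions (4.72%) at 1 ng and 5 of 178 (2.81%) at 100 pg, against 2.41% and 1.17% over all genes. Median coverage of RBFOX2 sites was 51 reads in hnRNP genes against 21 over all genes at 1 ng. At 100 pg it was 154 against 27, and the part of coverage in recurrence was not tested. The reverse, 2 or more Buffer-only and no RBFOX2 library, was seen at 0 of 71 Buffer-only positions at 1 ng and 0 of 67 at 100 pg, against 0.537% and 0.409% over all genes, so a 0 says little at these numbers. The position printed for the HNRNPK 3′UTR, base 83968449 of chromosome 9, was edited in 22 of 329 and 22 of 264 reads, 6.69% (4.46 to 9.92) and 8.33% (5.57 to 12.3), in RBFOX2 replicates 2 and 3 of 100 pg. The HNRNPC position, base 21230342 of chromosome 14 in coding exon 5, was edited at both inputs, in 8 of 706 reads in RBFOX2 replicate 3 of 1 ng and in 7 of 581 and 15 of 711 reads in RBFOX2 replicates 1 and 2 of 100 pg. The 2 positions printed for HNRNPK intron 5 lie 32.5 and 41.5 nt from the centre of the UGCAUG. The nearer was edited in 2 of 46 and 5 of 57 reads in RBFOX2 replicates 1 and 2 of 1 ng, and the farther in 1 of 57 and 2 of 63 reads in replicates 2 and 3. By contrast the HNRNPA1 position, base 54284871 of chromosome 12, was edited in 12 of 699 and 17 of 512 reads in RBFOX2 replicates 2 and 3 of 100 pg, in 11 of 668 in Enzyme-only and in 8 of 450 in Buffer-only replicate 3, with overlapping intervals of 0.985 to 2.98% and 2.08 to 5.25% in RBFOX2, 0.922 to 2.92% in Enzyme-only and 0.904 to 3.47% in Buffer-only.

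**Figure D4:**
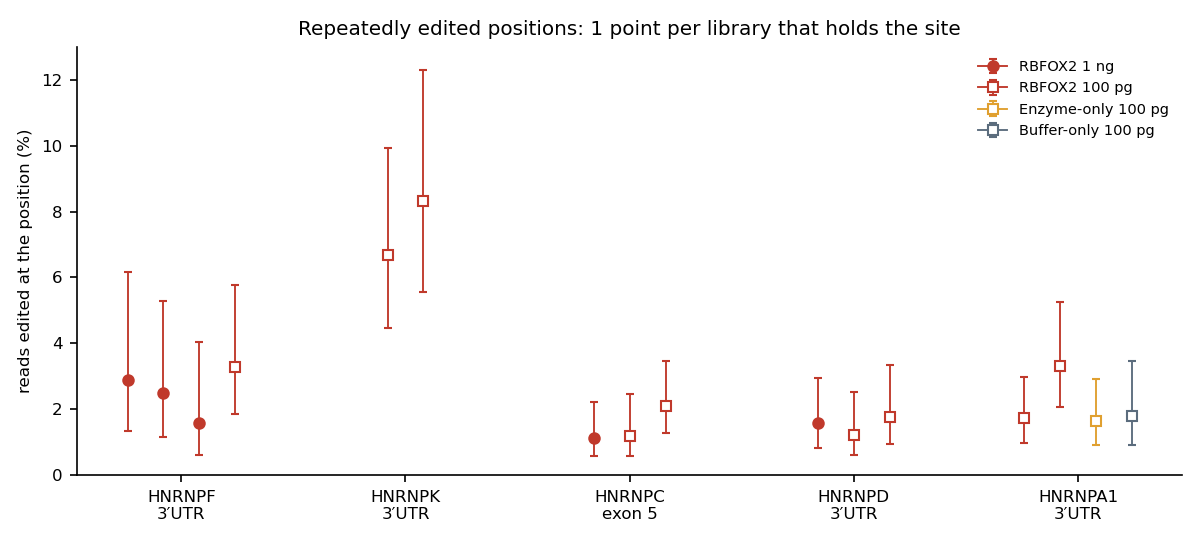
Percent of reads edited (y axis) at 1 recurrent position in each of 5 hnRNP genes (x axis), the one with the most covering reads. Each point is a library that holds the site, with its 95% Wilson interval. The HNRNPF 3′UTR position was edited in 2.9%, 2.48% and 1.59% of reads in the 3 RBFOX2 libraries of 1 ng, and the HNRNPA1 position also in an Enzyme-only and a Buffer-only library.

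The authors' confident clusters, those that recurred in all 3 replicates of a group, included hnRNP clusters for RBFOX2 and none for Buffer-only. At 1 ng 6 of 776 RBFOX2 clusters left after removal of Buffer-only clusters lay in the 10 genes, against 0 of 250 Buffer-only clusters. At 100 pg 5 of 214 did so, against 0 of 102 Buffer-only clusters. Before intersection over replicates, the 10 genes held 174 of 72693 RBFOX2 and 70 of 32000 Buffer-only clusters on a gene strand at 1 ng. At 100 pg they held 136 of 40323 and 66 of 28385. At such shares a Buffer-only 0 says little. HNRNPK had 3 confident RBFOX2 clusters at each input, but in different places. Those of 1 ng were in intron 5, at chr9:83975733-83975927, chr9:83976539-83976598 and chr9:83976644-83976733. Those of 100 pg were in the 3′UTR, at chr9:83968309-83968398 and chr9:83968429-83968593, and in coding exon 15, at chr9:83970727-83970819. HNRNPF alone had overlapping clusters at the 2 inputs, at chr10:43386398-43386472 for 1 ng and chr10:43386398-43386442 for 100 pg, and both hold the position edited in all RBFOX2 libraries of 1 ng.

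The other confident clusters were in HNRNPD at chr4:82354254-82354298 and HNRNPL at chr19:38836404-38836433 for 1 ng, and in HNRNPA1 at chr12:54284844-54284933 for 100 pg. None of the 11 holds UGCAUG, and 1, the HNRNPK cluster at chr9:83976539-83976598, lies within 50 nt of a copy. The HNRNPD cluster held a listed edit site in 1 of the 14 libraries, and 3 clusters held sites of control libraries. The HNRNPA1 cluster held 2 sites of the Enzyme-only library and 1 Buffer-only site of 100 pg. The HNRNPK cluster at chr9:83975733-83975927 held 1 Buffer-only site at each input, and that at chr9:83968309-83968398 held 1 Enzyme-only site of 100 pg.

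A further list of 18 hnRNP family genes, including PTBP2, SYNCRIP, HNRNPA3, RBMX and HNRNPH3, was counted in the same way. These 5 are named because they had the most sites in the RBFOX2 libraries of 1 ng. At 1 ng the lowest RBFOX2 library exceeded the highest Buffer-only library for 10 of 18, beside the 27.7% of all genes with 5 or more sites. All 18 had 5 or more sites. At 100 pg this held for 6 of 18, of which 15 had 5 or more sites, beside 9.27%. Here too the genes were not matched for number of sites. With scaling edgeR tested 12 at 1 ng and 7 at 100 pg and called 0. Its unadjusted p was under 0.05 for 3 higher and 1 lower at 1 ng and for 2 higher at 100 pg. Over all genes tested this held for 266 higher and 127 lower of 2265 at 1 ng. At 100 pg it held for 78 higher and 20 lower of 768. The median log2 fold changes of the family genes tested were 0.91 and 1.25, against 0.21 and 0.07 over all genes tested. These medians too describe only the genes that passed the filter. PTBP2, a polypyrimidine tract-binding splicing repressor, had 19, 17 and 21 sites in RBFOX2, 8 in Enzyme-only and 0, 4 and 3 in Buffer-only libraries of 1 ng, with a scaled log2 fold change of 1.67 and an edgeR adjusted p of 0.0791. SYNCRIP had 20, 14 and 17 in RBFOX2, 11 in Enzyme-only and 2, 3 and 4 in Buffer-only libraries of 1 ng, with 1.16 and 0.174. HNRNPA3 had 22, 13 and 13 in RBFOX2, 9 in Enzyme-only and 2, 3 and 1 in Buffer-only libraries of 1 ng. Its scaled log2 fold change was 1.64 with an edgeR adjusted p of 0.099. At 100 pg its Enzyme-only library had 20 sites, above the 9, 5 and 2 of the RBFOX2 libraries. RBFOX2 and Buffer-only libraries of 100 pg overlapped for PTBP2 (means 7 and 2.33), SYNCRIP (3 and 2) and HNRNPA3 (5.33 and 1). They separated for RBMX (4.67 and 1) and HNRNPH3 (5.67 and 0).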

How the data were processed

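Edit sites and clusters were measured in 14 libraries of fixed HEK293T cells made with a low-input kit, whose keeping of strand is not stated. The authors trimmed single-end reads with cutadapt, removed repeats, aligned with STAR 2.4.0 to hg38 and called C-to-U sites with SAILOR and clusters with FLARE, and intersected clusters over 3 replicates for the confident lists. The deposited sites hold counts of covering reads, an edit fraction and a confidence score. The authors removed known variants, and deposited sites had coverage of 5 or more, scores above 0.5 and fractions up to 0.796. The deposited clusters hold counts of edited bases and reads, a mean coverage signal and a score.

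Here each site was given to 1 gene on its strand by Gencode 44 on the same build, a later release than that used by the authors, with Python 3.11.15, pandas 2.3.3, pysam 0.24.0 and bedtools 2.31.1. Sites per gene are whole-number counts and were tested, RBFOX2 against Buffer-only within each input, with edgeR 4.0.16 in R 4.3.3 (TMM, quasi-likelihood test, filterByExpr with a minimum of 3 sites per library and 5 in all, Benjamini-Hochberg over all genes tested, two-sided, threshold 0.05). Single genes were also compared without scaling by exact two-sided permutation. Enzyme-only had 1 library per input and was not tested. Regions, motif distances and positions are described without tests. Scripts were tested on simulated counts with the means of the genes tested and an assumed spread. There edgeR recovered 2% of 2-fold and 46% of 4-fold increases at 1 ng, with 5 false calls. At 100 pg it recovered 1% and 38%, with 3 false calls. A gene that was not called may therefore still differ.

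The 10 genes, the family list and the tests were chosen with earlier results of these data known. All 10 genes are named, and from the family list any gene called and the 5 with the most sites in RBFOX2 libraries of 1 ng. Positions were described singly if edited in all 3 RBFOX2 and no Buffer-only library of an input, or if in a confident cluster, and the other positions and gene parts shown were picked after their values were seen. Alternatives changed the scaling, the tool (DESeq2 1.42.0), the filters, the gene assignment, the unit counted, the replicate block and each replicate. Filters on edited reads, a canonical transcript, a fit of both inputs with and without a replicate block and a set without HNRNPK were added after the data were seen.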

Additional observations from a re-analysis of the deposited data

How the results depend on the processing

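Of the alternatives run on the counts of called hnRNP genes, no scaling gave 5 at 1 ng and 2 at 100 pg, no filter on low counts gave 1 at 1 ng, HNRNPK, and leaving out each replicate in turn gave 0 at 1 ng and 0 to 1 at 100 pg, where the 1 is HNRNPC without RBFOX2 replicate 1 (adjusted p 0.0411 by edgeR). No scaling keeps the general excess of sites in RBFOX2 libraries that TMM takes out. Over all genes it called 932 of 2265 higher at 1 ng and 94 of 768 at 100 pg. With the replicate number as a block, 0 genes were called at each input. Libraries sharing a number showed no common deviation from their group means (correlations −0.031 to −0.012 at 1 ng and −0.025 to 0.003 at 100 pg). With few sites per gene, such values cannot tell whether RBFOX2 and Buffer-only libraries of a number shared a slide. Between inputs, libraries of a group with the same number correlated at −0.007 to 0.049, and the fit of both inputs called 0 of 1978 genes with and without a block for them, with 77 and 107 at an unadjusted p under 0.05. Over all genes at 1 ng the block gave 25 higher and 3 lower calls, against 44 and 18 without it, DESeq2 gave 0, no filter gave 92 and 1, and leaving out replicates gave 0 to 16 higher calls.

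The sign of a log2 fold change that was not called turned at 1 ng for HNRNPA2B1 with no scaling (0.51), for HNRNPL with no scaling (0.68), for HNRNPF with no scaling (1.13) and no filter (0.21), and, without single replicates, for HNRNPC (−0.11 to 0.45) and HNRNPF (−0.57 to 0.70). At 100 pg it turned for HNRNPA2B1 with coverage of 10 or more (−0.31) and 2 or more edited reads (−0.56), for HNRNPU with no scaling (0.60) and no filter (0.21), and, without single replicates, for HNRNPA2B1 (−0.066 to 0.44) and HNRNPU (−0.90 to 0.29). The cause was not tested.

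Within 100 and 200 nt of UGCAUG the RBFOX2 shares were 9.29% and 15.6% at 1 ng and 6.79% and 11.7% at 100 pg, and the Buffer-only shares within 200 nt were 3.17% and 4.8%. Within 50 nt the RBFOX2 share of 1 ng was 4.98% without HNRNPK. Without single replicates the 50 nt shares were 5.83 to 7.15% and 0.725 to 3.18% for RBFOX2 and 0 and 0 to 1.79% for Buffer-only. The 3′UTR share with coding sequence given priority was 42.6% and 53.3% in RBFOX2 and 26.8% in Buffer-only libraries of 100 pg, and on the canonical transcript 35.4%, 50.8% and 21.8%. Under the any-transcript rule it was, without single replicates, 49.3 to 57.0% and 70.7 to 76.0% in RBFOX2 and 26.2 to 40.0% and 48.2 to 55.0% in Buffer-only libraries of 1 ng and 100 pg. The 1 position in all RBFOX2 libraries of 1 ng became 11 when 2 libraries sufficed and 1 to 7 without single replicates, and the 0 of 100 pg became 5 and 0 to 3. Few sites per gene, at most 29 in a library, limit every comparison of single genes.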
